A study of Caenorhabditis elegans with 14 samples.

Results

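The FLP and NLP genes of C. elegans encode neuropeptide precursors, and 69 of them were followed across 7 strain and stage groups of larvae: 31 flp genes and 38 nlp genes, of 42048 features in the count files. Members were all rows named flp- or nlp- with a number, of which there were 75, leaving out the 6 rows nlp-27 to nlp-31 and nlp-34. The study asked how loss of nfki-1 and ikb-1, the worm homologs of the mammalian IκB proteins, alters transcription during development. At L4, animals were grown for 36 h at 25 °C and comprised WT (strain N2), the single mutants nfki-1(cer1) and ikb-1(nr2027), and a double mutant carrying both of these alleles. At L1, animals had been fed for 5 h and starved for 3 h at 25 °C and comprised WT and the single mutants nfki-1(cer2) and ikb-1(cer9). The alleles are deletions of 368 bp (cer1) and 434 bp (cer2, with an insertion) in nfki-1 and of 1911 bp (nr2027, which removes the sequence for the ankyrin repeats) and 462 bp (cer9, which removes the start codon) in ikb-1. No allele was thus measured at both stages, and no double mutant was measured at L1.

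FLP precursors give rise to FMRFamide-like peptides, which end in an amidated arginine and phenylalanine, and NLP precursors to the other neuropeptide-like proteins, a mixed group. Precursors are cut by a proprotein convertase, trimmed by a carboxypeptidase, often amidated, packed into dense core vesicles and released, and the peptides act mostly through G protein-coupled receptors. In worms they modulate locomotion, egg laying, feeding, sleep and sensory responses. Most are made in small sets of neurons, while some come from other tissues, such as nlp-40 from the intestine and nlp-33 from the epidermis.

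The labels name whole animals as the tissue, while their extract protocol also speaks of digestion by collagenase and of sorted subpopulations, and the study's methods do not mention this step for worms, so it is not settled here whether whole larvae or sorted cells gave these reads. The 2 L4 files of each strain differed by 3.37 to 4.45 times the counting variance. After removing the difference between files that the strains shared, this became 0.59 to 0.674 times, so the files were counted as 1 sample. The L1 replicates differed by 15.9 to 22.2 times before this step and 11.6 to 22.9 times after it. At L4 there is therefore 1 sample per strain and no test, and each ratio carries an exact binomial 95% interval that covers counting error only. These intervals used the mean count of the 2 files rather than their sum, so they are wider than the summed reads would give. At L1 there were 2 libraries per strain, and nothing in the labels says that they came from separate cultures, so p-values measure the spread between these libraries, which may be technical. The series' design text counts 1 replicate per strain at L1, in conflict with the 2 libraries that the labels number. Reads counted on genes numbered 19735958 to 22373456 per L4 file and 57740500 to 63394016 per L1 library. CPM, the reads of a gene relative to all reads on genes in its library, were scaled by TMM within each stage unless stated. The targeted genes matched the labels in direction: nfki-1 (listed as C33A11.1) stood at 36.52 and 37.11 CPM in L4 WT, at 6.431 to 7.518 CPM in the 4 files with cer1, and at 24.54 and 25.34 CPM in ikb-1(nr2027). In L1 it stood at 158.4 and 146.5 CPM in WT, at 99.1 and 75.37 CPM in nfki-1(cer2), and at 177.9 and 145.3 CPM in ikb-1(cer9). For ikb-1, the L4 values were 11.53 and 11.8 CPM in WT, 5.893 and 5.647 CPM in nfki-1(cer1) and 2.54 to 3.695 CPM in the 4 files with nr2027, and the L1 values were 53.08 and 48.04 CPM in WT, 40.79 and 40.69 CPM in nfki-1(cer2) and 1.632 and 2.755 CPM in ikb-1(cer9).

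Of the 69 members, 65 were found in the WBcel235 annotation, and nlp-10, nlp-37, nlp-38 and nlp-42 were not matched by symbol. Of these 65, 22 lie on the X chromosome (33.8%, against 13.6% of 19237 protein-coding features), 10 each on IV and V, 8 each on I and III and 7 on II. Another gene overlaps 22 members on the opposite strand, and nlp-5 overlaps F35C11.9 on its own strand. Overlap was judged on whole gene spans, introns included. Whether the counting used strand is not given in the sources used here, so the part of the partner in a member's count is not known. Among members described below, nlp-17 (WBGene00003755, chromosome IV, 13505270 to 13505762) overlaps seld-1, nlp-24 (V, 11616376 to 11616828) overlaps glb-15, nlp-26 (V, 19613461 to 19614534) overlaps Y43F8C.3, nlp-36 (III, 9488731 to 9489186) overlaps dars-1, and flp-1 (IV, 9144705 to 9146128) overlaps daf-10. The same holds for flp-2, flp-3 and flp-28 (W07E11.1), flp-11 (tmem-135), flp-16 (romo-1), flp-27 (C25H3.11), flp-32 (R03A10.8), flp-33 (ntr-1), nlp-2, nlp-22 and nlp-23 (T01B6.1) and nlp-41 (mog-4). No gene overlaps nlp-20 (IV, 7642054 to 7643071), nlp-33 (V, 11147346 to 11147737), nlp-47 (IV, 5290847 to 5293654) or flp-17 (IV, 17190204 to 17191891).

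At L4, a few NLP genes carried most of the neuropeptide reads. In WT the summed level of the 69 members was 1496 to 1580 CPM, and nlp-40, nlp-24, nlp-33 and nlp-36 together made up 54.1% of it. These 4 genes also led the other L4 strains, with 56.4% of the members' level in nfki-1(cer1), 57.7% of it in ikb-1(nr2027) and, for the double mutant, 55.2%. The next in WT were nlp-20 and nlp-17, which brought the share to 64.5%. Per kilobase of exon, the WT order was nlp-24 (603.8 RPKM), nlp-33 (601.6 RPKM), nlp-36 (378.6 RPKM), nlp-40 (369.2 RPKM), nlp-20 (182.7 RPKM) and nlp-17 (168.0 RPKM). The order of neighbours was not stable between the WT files, with nlp-33 at 810.5 and 392.7 RPKM against 548.8 and 658.9 RPKM for nlp-24, and nlp-36 at 533.5 and 223.7 RPKM against 360.1 and 378.3 RPKM for nlp-40. No FLP gene was among the first 6 at L4 in WT, where flp-15 led the FLP genes with 73.68 RPKM.

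At L1, the reads were spread over many more members, and an FLP gene led. The summed level was 2434 and 2658 CPM in WT, and flp-1, nlp-40, flp-18 and flp-12 made up 19.3% of it. With nlp-3 and flp-9 the share reached 25.7%. FLP-1 peptides, made mainly in the AVK interneurons, modulate locomotion, and flp-1 stood at 171.6 and 153.8 CPM in WT, 174.9 and 167 CPM in nfki-1(cer2) and 156 and 159.2 CPM in ikb-1(cer9). Per kilobase, flp-1 led with 236.8 RPKM, followed by nlp-40 (180.8 RPKM), nlp-3 (164.8 RPKM), nlp-24 (160.3 RPKM), flp-14 (143.6 RPKM) and nlp-36 (137.8 RPKM). flp-23 and nlp-39 were near 0 in every library.

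**Figure D1:**
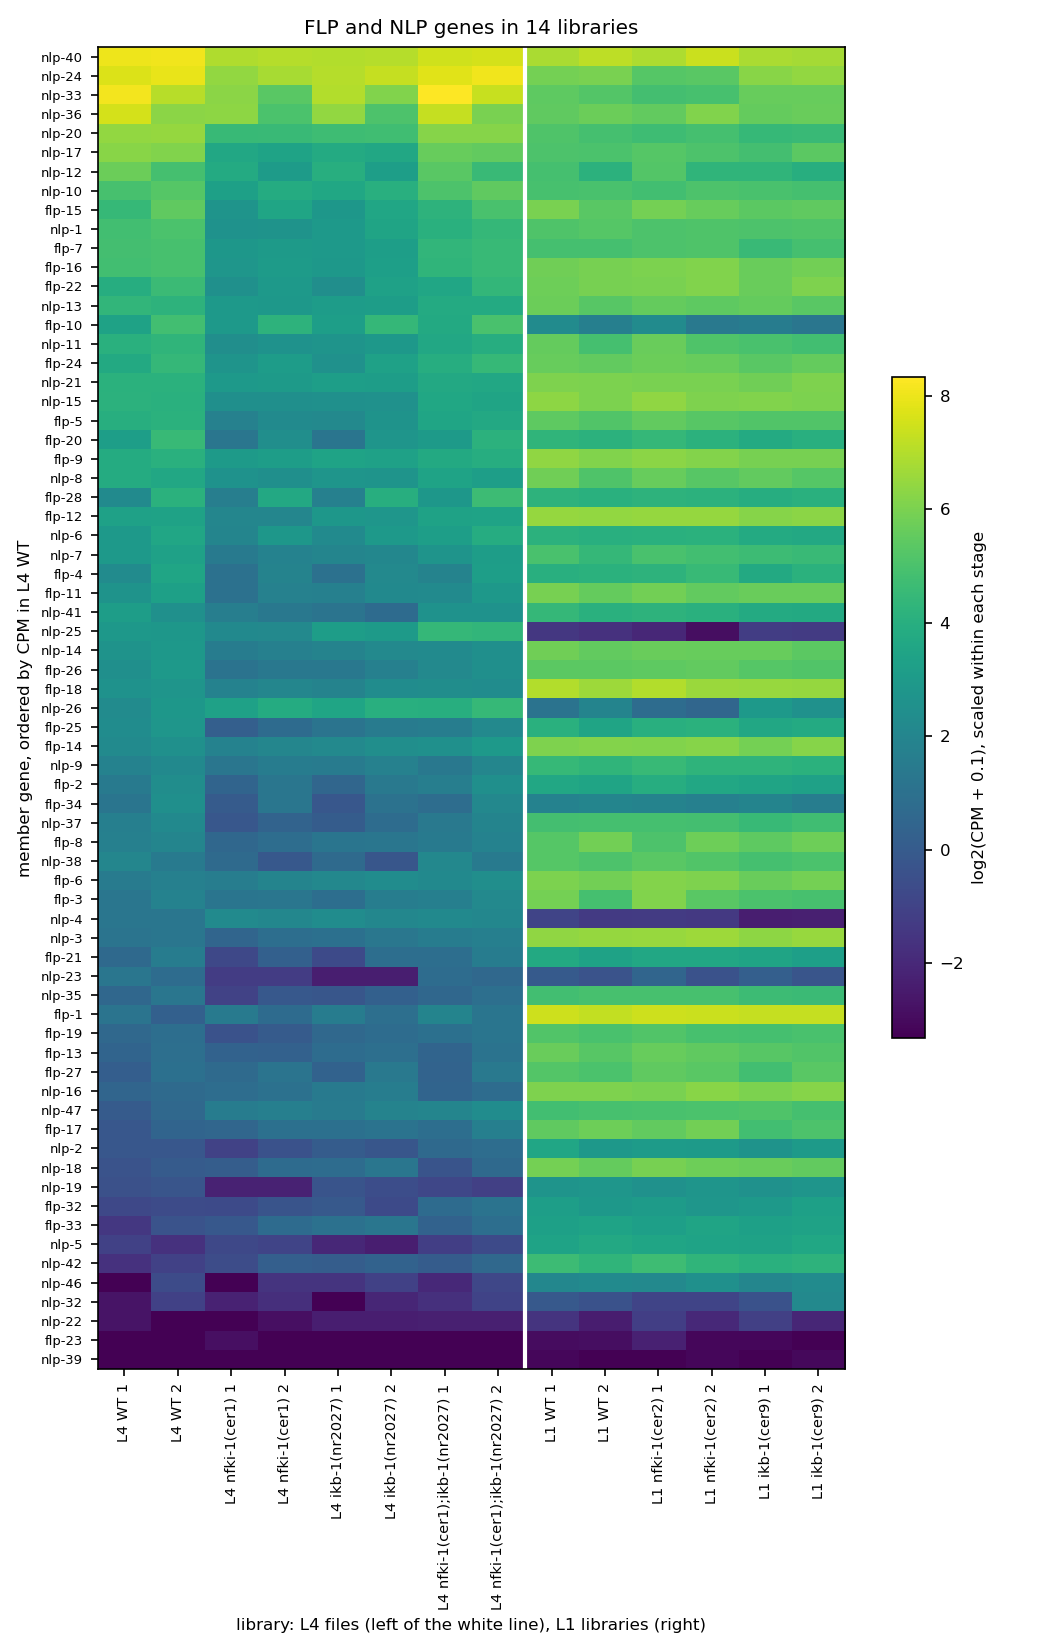
Levels of the 69 members (rows, ordered by their level in L4 WT) in the 14 libraries (columns), as log2 of CPM plus 0.1, with CPM scaled within each stage. The rows at the top, led by nlp-40 and nlp-24, are high at L4, and most rows below them are higher in the 6 L1 libraries than in the 8 L4 files.

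WT is the only genotype present at both stages, and most neuropeptide genes were lower at L4 than at L1. Of 66 members that passed the low filter (a mean of at least 10 counts over the samples of the fit), 34 were lower and 8 higher at L4 in edgeR's quasi-likelihood test (called at a log2 change of at least 1 with an adjusted p below 0.01), against 15% lower and 14.2% higher among 18001 genes tested. The median log2 change was −1.57 over the members and −0.28 over all genes. The spread in this test came from the L1 replicates, and the single L4 sample was assumed to vary likewise. With library totals alone the medians were −2.13 over the members and −0.83 over all genes. Without L1 WT replicate 1, 5 members were called higher, and without L1 WT replicate 2, 4 were. In bulk samples, fewer cells of a type and less RNA per cell cannot be told apart, and stage here coincides with starvation and with depth, which cannot be told apart from it either.

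The FLP genes were mostly lower at L4, with 18 of 30 lower and 1 higher (flp-10), against 15% and 14.2% of all genes, and a median of −2.23. The NLP genes divided, with 16 of 36 lower and 7 higher and a median of −1.37. The largest decrease was in flp-1, at 160.6 and 143.1 CPM in L1 WT and 1.865 CPM in L4 WT when both stages were scaled together (log2 change −6.35, SE 0.29, edgeR adjusted p = 0.000445, or 81.3-fold). It was followed by nlp-42 (−5.92), nlp-18 (−5.75), flp-17 (−5.28), nlp-16 (−5.23) and nlp-5 (−5.01). The BAG neuron peptide FLP-17, which inhibits egg laying through the receptor EGL-6, thus had 41.66 and 50.3 CPM at L1 and 1.181 CPM at L4 in WT. In all, 20 of 66 members were at least 10 times lower at L4 (16.2% of all genes).

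The members that were higher at L4 in WT were nlp-25 (log2 change 5.18, from 0.248 and 0.2043 CPM to 8.3 CPM), nlp-4 (2.97), nlp-33 (2.67), flp-10 (2.59), nlp-24 (2.23), nlp-20 (1.78), nlp-36 (1.77) and nlp-17 (1.47). Their edgeR adjusted p ranged from 0.000756 to 0.00699. Of these, nlp-24, nlp-25 and nlp-33 belong to the group whose peptides carry the YGGW motif. NLP-33 is made in the epidermis, and the 10 epidermis and molting markers were higher at L4 for 9 of 10, with a median log2 change of 6.13. Their part in the change of nlp-33 was not tested. Across strains, all 4 L4 samples lay below all 6 L1 libraries for 46 of 66 members (35.5% of all genes) and above them for 5 (26.2% of all genes): flp-10, nlp-4, nlp-24, nlp-25 and nlp-33.

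**Figure D2:**
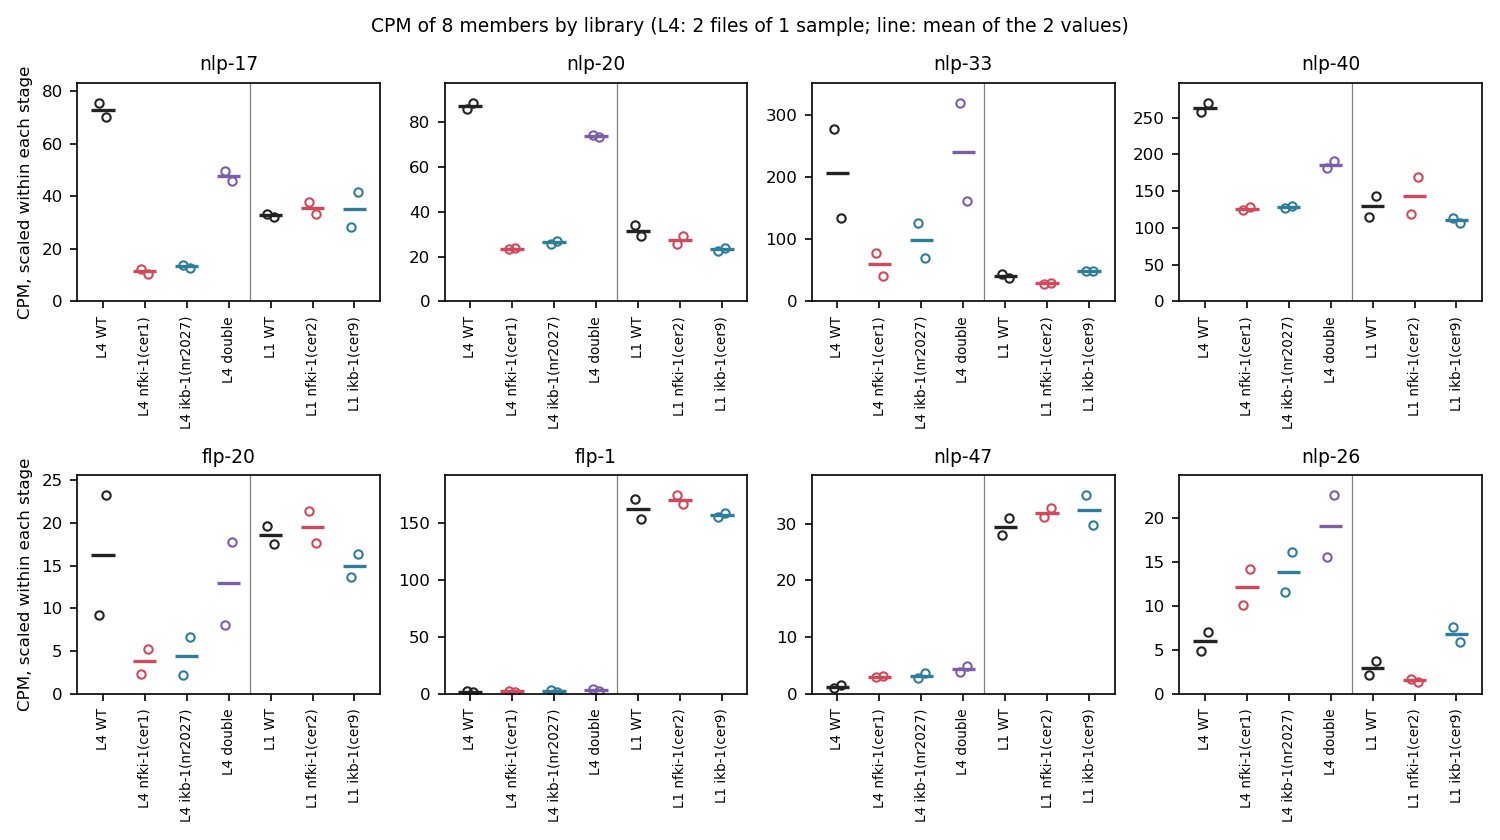
CPM of 8 members in each library, scaled within each stage, with a line at the mean of the 2 values; the 2 points of an L4 strain are files of 1 sample. In nlp-17, nlp-20 and flp-20 both single mutants lie well below WT and the double mutant at L4, while flp-1 and nlp-47 are low in all L4 strains and high at L1.

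Among the other genes of peptide signalling, more were lower than higher at L4 in WT in each list described here. Of 92 receptor genes that passed the filter, 42 were lower and 0 higher (15% and 14.2% of all genes, median −2.21). Of 10 processing genes 3 were lower (egl-3 −2.21, pghm-1 −2.21 and pgal-1 −2.18), and of 10 genes of dense core vesicles and release 5 were lower, among them unc-31, which encodes the CAPS protein of vesicle release (−4.75). The neprilysins, peptidases of the family that breaks down peptides, divided into 3 higher and 4 lower of 22. The 3 other neuropeptide genes, pdf-1, snet-1 and ntc-1, were all lower, and pdf-1 fell by 3.00 on the log2 scale. Of 11 pan-neuronal markers 8 were lower (median −2.26), and all 8 transmitter genes were lower (median −2.97). Their part in the decrease of the members was not tested. Muscle markers divided between the stages, with CPM scaled within each stage. In WT, unc-22 stood at 136.3 and 136.5 CPM at L4 and at 3234 and 5368 CPM at L1. unc-89 stood at 149.6 and 150.3 CPM against 2766 and 2850 CPM, and myo-3 was also lower at L4. unc-54 (4165 and 4102 against 2893 and 2747 CPM) and unc-15 (1706 and 1716 against 766.3 and 1010 CPM) were higher. The cause of this split within a tissue was not tested, and neither was a part of transcript length in it or in the other decreases.

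Loss of nfki-1 at L4 went with lower levels of most neuropeptide genes. In nfki-1(cer1), 38 of 62 members that passed the filter were at least 2 times lower than in WT (a log2 ratio of −1 or less) and 4 were at least 2 times higher, against 23.1% lower and 27.7% higher among 14148 genes. The summed level of the 69 members was 604.4 and 606.2 CPM, compared with 1496 to 1580 CPM in WT. The median log2 ratio was −1.21 over the members and −0.07 over all genes. It was similar in the families, at −1.15 over 30 FLP genes (17 lower, 1 higher) and −1.22 over 32 NLP genes (21 lower, 3 higher). Of the members, 6 were at least 4 times lower (6.06% of all genes) and 0 at least 4 times higher (12.5% of all genes). Without WT replicate 1, 2 members were called higher.

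The ikb-1(nr2027) mutant showed a like picture with smaller ratios. There, 31 of 62 members were lower and 5 higher (19.7% and 26.8% of all genes), with a summed level of 744.7 and 749.0 CPM. At least 4 times lower were 2 members, nlp-17 and nlp-23 (3.92%), and 1, flp-33, was at least 4 times higher (11.7%). The median was −0.98 over the members and −0.03 over all genes. It was −0.61 over the FLP genes (13 lower, 1 higher) and −1.04 over the NLP genes (18 lower, 4 higher). Without WT replicate 2, 8 members were higher and the median was −0.62, and without replicate 1 of the mutant it was −0.64. Since both comparisons use the same WT sample, their likeness is not independent. With scaling by library totals alone, the median over all genes became 0.35 in nfki-1(cer1), and that in ikb-1(nr2027) 0.30. The members then stood at −0.79 with 24 lower and 7 higher in nfki-1(cer1), against 13.3% and 35.7% of all genes, and at −0.64 with 18 lower and 8 higher in ikb-1(nr2027), against 11.6% and 33.2%.

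In the double mutant, 0 of 62 members were called lower and 7 were higher (6.96% and 18% of all genes). The summed level was 1383 to 1455 CPM, the median log2 ratio to WT was −0.16 (−0.07 over all genes), and the lowest member was flp-25 at −0.69. At least 4 times higher was 1 member, nlp-42 (6.83% of all genes), and 0 were at least 4 times lower (1.81%). Leaving out 1 file sets a single file against a pair, and the files of a strain differ. Without replicate 1 or 2 of the double mutant 1 and 3 members were lower, and the median was 0.06 and −0.26. Without WT replicate 1 or 2 the median was −0.23 and 0.14. With library totals alone the members' median was 0.03 and that of all genes 0.13. Of the members, 31 were called lower in both single mutants (17.3% of all genes). For 47 of 62 members both single mutants were below both WT and the double mutant (37.9% of all genes). Set directly against nfki-1(cer1), the double mutant had 34 members higher and 0 lower (14% and 16.9% of all genes, median 1.13 against 0.05), and against ikb-1(nr2027) it had 25 higher and 0 lower (10.2% and 14.9%, median 0.76 against 0.03). With library totals alone these counts were 28 and 0 against nfki-1(cer1) (9.59% and 22.1% of all genes), and 17 and 1 against ikb-1(nr2027) (7.44% and 18.1%). Genes of other lists went both ways against nfki-1(cer1). sbt-1 (1.43) and ida-1 (0.92) lay above it, and unc-31 (−1.40), cpd-1 (−1.36) and pkc-1 (−1.28) below. Members found in the annotation have exon lengths of 240 to 1732 bases. Whether transcript length or RNA quality had a part in these ratios was not tested. With 1 sample per strain, none of these differences has a replicate check. Where the spread of the L1 replicates was taken for the L4 samples as well, edgeR called 5 of 66 members lower in nfki-1(cer1) (0.561% of 18001 genes) by the rule used between stages, and it called 0 lower in the other L4 mutants and 0 higher in any. At an unadjusted p below 0.05 that fit had 43 lower and 3 higher in nfki-1(cer1) (19.8% and 18.8% of all genes), 38 and 5 in ikb-1(nr2027) (17.7% and 17.8%) and 1 and 9 in the double mutant (5.96% and 9.38%).

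**Figure D3:**
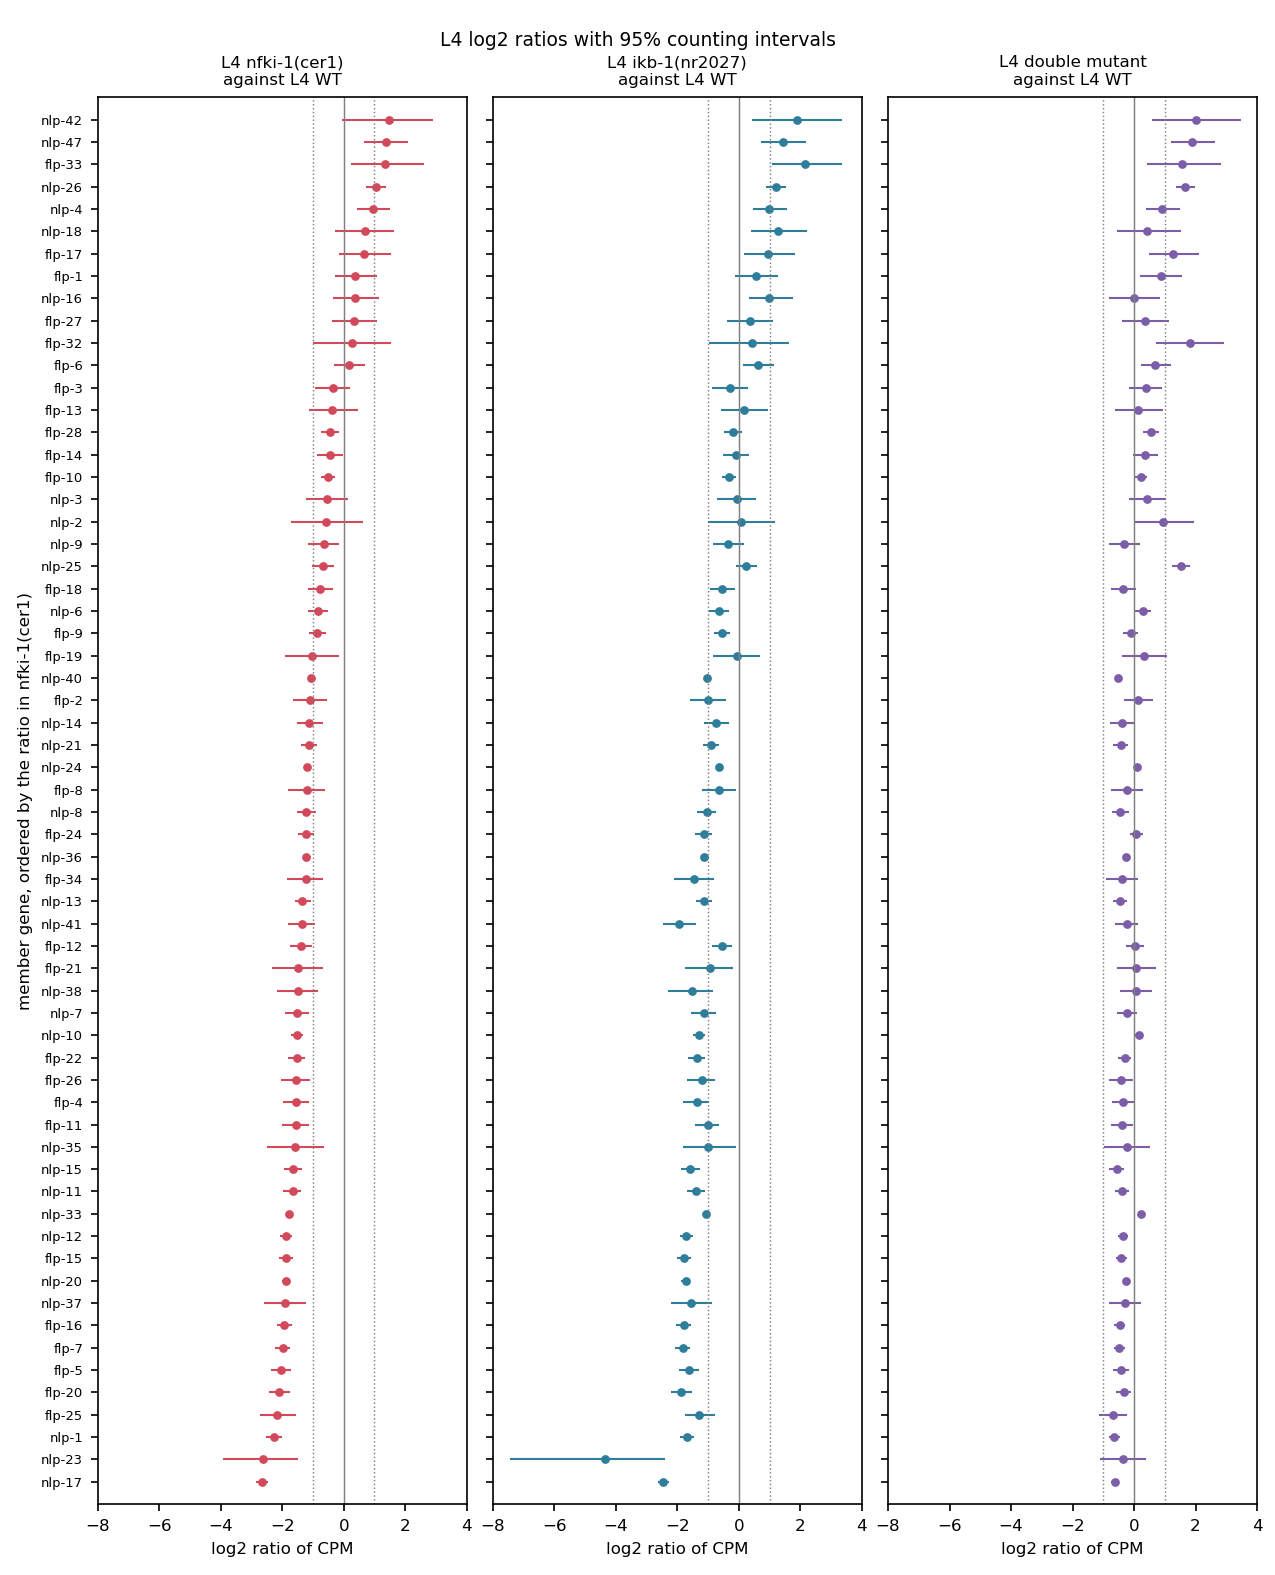
Log2 ratio to WT of the 62 members that passed the low filter (rows) in the L4 single and double mutants (panels), each with its exact binomial 95% interval, which covers counting error only. Most points lie left of 0 in both single mutants and near 0 in the double mutant, where 7 members lie at 1 or above.

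In the single mutants the decreases were larger, on the median, among members of higher level. The 22 members with a mean of at least 10 CPM over the 4 strains had a median of −1.43 in nfki-1(cer1), with −1.15 in ikb-1(nr2027), and the 18 members of 3 to 10 CPM had −1.38 and −1.03. The 22 members under 3 CPM had −0.46 and 0.01, and they held 3 of the 4 and 4 of the 5 members called higher. This split was chosen after the values had been seen. Members on the X chromosome (20) and on autosomes (38) were alike in nfki-1(cer1), with medians of −1.16 and −1.20, and stood at −0.69 and −0.98 in ikb-1(nr2027). The 38 members that overlap no gene had medians of −1.23 and −1.04, with 23 and 20 lower, and the 20 that overlap one had −1.11 and −0.66, with 12 and 8 lower (23.1% and 19.7% of all genes).

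nlp-17 had the lowest ratio in nfki-1(cer1). It stood at 75.57 and 70.25 CPM in the WT files, 12.38 and 10.59 CPM in nfki-1(cer1), 13.88 and 12.72 CPM in ikb-1(nr2027) and 49.47 and 45.92 CPM in the double mutant. The single mutants were thus far below both other strains, and the double mutant lay between. The log2 ratios to WT were −2.66 (−2.85 to −2.47), −2.45 (−2.64 to −2.26) and −0.62 (−0.74 to −0.50), and the double mutant was 2.04 above nfki-1(cer1) (1.85 to 2.23) on the log2 scale. The same order held for nlp-20, with means of 87.09 CPM in WT, 23.57 CPM in nfki-1(cer1), 26.31 CPM in ikb-1(nr2027) and 73.37 CPM in the double mutant.

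The sensory neuron peptide gene nlp-1, whose products act from the AWC olfactory neurons, had means of 29.85 CPM in WT, 6.15 CPM in nfki-1(cer1), 9.30 CPM in ikb-1(nr2027) and 19.2 CPM in the double mutant (log2 ratios −2.28, −1.68 and −0.64). The other genes of the sensory list did not reach the threshold, with nlp-9 at −0.65, −0.37 and −0.32 and flp-6, expressed in ASE neurons, at 0.16, 0.62 and 0.69. flp-25 stood at 5.92, 1.32, 2.44 and 3.68 CPM in the same order of strains. flp-5, at 16.27, 4.0, 5.32 and 12.19 CPM, and flp-7, at 29.83, 7.53, 8.40 and 21.49 CPM, followed the same order, FLP-7 being a peptide of ASI neurons that promotes fat loss in the intestine. flp-15 and flp-16 had log2 ratios of −1.79 in ikb-1(nr2027), and nlp-15 had −0.56 in the double mutant. nlp-23 and nlp-41 were the members with lower ratios in ikb-1(nr2027) than in nfki-1(cer1) among the largest decreases: nlp-23 had −4.37 (−7.45 to −2.39) against −2.63 (−3.92 to −1.48) and rests on a few counts in the mutants, and nlp-41 had −1.94 (−2.47 to −1.40) against −1.37 (−1.81 to −0.95).

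Peptide genes with a role in locomotion did not move together. flp-20, expressed in touch receptor neurons, stood at 16.21 CPM in WT, 3.8 CPM in nfki-1(cer1), 4.45 CPM in ikb-1(nr2027) and 12.82 CPM in the double mutant (log2 ratios −2.09, −1.87 and −0.34). nlp-12, a cholecystokinin-like precursor made in the stretch-sensing DVA neuron, stood at 40.52, 11.11, 12.45 and 31.77 CPM (−1.87, −1.70 and −0.35). flp-2 had −1.11, −1.0 and 0.13. In contrast, flp-1 was above WT in each mutant, at 1.61, 2.10, 2.37 and 2.92 CPM. Its log2 ratios in the single mutants were 0.38 (−0.29 to 1.08) and 0.56 (−0.12 to 1.26). These intervals included 0, but they used the mean count of the 2 files. Narrower intervals on the summed reads were not computed.

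Of 5 sleep-promoting peptide genes past the filter, 4 were called lower in nfki-1(cer1), 3 were in ikb-1(nr2027), and the double mutant had 0 (23.1%, 19.7% and 6.96% of all genes). flp-11, the main sleep peptide gene of the RIS neuron, stood at 7.91 CPM in WT, 2.67 CPM in nfki-1(cer1), 3.90 CPM in ikb-1(nr2027) and 6.02 CPM in the double mutant (log2 ratios −1.57, −1.02 and −0.39). Of the genes that act in stress-induced sleep from the ALA neuron, flp-24 had ratios of −1.23, −1.15 and 0.08, nlp-8 of −1.21, −1.04 and −0.44, nlp-14 of −1.11, −0.73 and −0.40, and flp-13 of −0.39, 0.18 and 0.12. nlp-22 did not pass the filter at L4.

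Among genes that bear on egg laying, nlp-7 stood at 8.82 CPM in WT, 3.06 CPM in nfki-1(cer1), 4.0 CPM in ikb-1(nr2027) and 7.56 CPM in the double mutant (log2 ratios −1.52, −1.14 and −0.22). flp-10 (−0.51, −0.32 and 0.22) and nlp-3 (−0.53, −0.06 and 0.44), a gene of the egg-laying HSN neurons, did not reach the threshold, and flp-17 did so only in the direction of an increase in the double mutant (0.67, 0.95 and 1.28). flp-18 and flp-21 encode ligands of NPR-1, the receptor that sets social feeding, and had −0.76, −0.55 and −0.35, and −1.47, −0.95 and 0.06.

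The gut and epidermis genes behaved unevenly. nlp-40, the intestinal signal that acts on the receptor AEX-2 in the defecation cycle, had file values of 257.1 and 270.1 CPM in WT, 123.9 and 128.7 CPM in nfki-1(cer1), 127 and 129.8 CPM in ikb-1(nr2027) and 181.5 and 190.5 CPM in the double mutant (log2 ratios −1.05, −1.03 and −0.51). It was thus lower in every mutant, and at −0.51 (−0.57 to −0.45) among the lowest members in the double mutant. nlp-33 had means of 206.8, 59.74, 98.52 and 239.9 CPM (−1.79, −1.07 and 0.21) and nlp-24 of 227.5, 99.39, 144.1 and 244.8 CPM (−1.19, −0.66 and 0.11), both with the double mutant at or above WT. nlp-25 stood at 7.16, 4.49, 8.49 and 20.81 CPM and was the only one of the 7 members higher in the double mutant that was below WT in a single mutant (−0.67, 0.25 and 1.54). Some members also differed between the files of a sample, in the same way in each strain. nlp-33 read 278.8 and 135.1 CPM in the WT files, and 5 of 62 members differed at least 2 times between files in all 4 strains, with flp-10, flp-20, flp-28 and flp-34 higher in the files numbered 2 and nlp-36 lower. The share of all genes that did so was not computed.

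Few members were higher in the mutants. In all 3 mutants these were flp-33, nlp-26, nlp-42 and nlp-47. nlp-47, the gene of a peptide related to gonadotropin-releasing hormone, stood at 1.18 CPM in WT, 3.03 CPM in nfki-1(cer1), 3.17 CPM in ikb-1(nr2027) and 4.36 CPM in the double mutant (log2 ratios 1.36, 1.43 and 1.89). nlp-26 stood at 5.95, 12.22, 13.84 and 18.95 CPM (1.04, 1.22 and 1.67), and flp-33 at 0.48, 1.23, 2.13 and 1.44 CPM (1.35, 2.14 and 1.57). nlp-42 had 1.46, 1.88 and 2.01. Its interval in nfki-1(cer1) of −0.07 to 2.90 included 0, but it used the mean count of the 2 files. It is thus wider than the summed reads would give. nlp-18 was higher in ikb-1(nr2027) only among called values (0.68, 1.27 and 0.43), flp-32 and flp-17 in the double mutant (1.81 and 1.28), and nlp-4 stood just under the threshold in each mutant (0.95, 1.00 and 0.91).

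Some of the genes that process the peptides were also lower in the single mutants. Of 10 processing genes 6 were lower in nfki-1(cer1), 4 were in ikb-1(nr2027), and the double mutant had 2 (23.1%, 19.7% and 6.96% of all genes), with 0 higher in each and medians of −1.06, −0.87 and −0.48. sbt-1, the 7B2-like chaperone of the convertase EGL-3, stood at 136.9 CPM in WT, 38.13 CPM in nfki-1(cer1), 43.72 CPM in ikb-1(nr2027) and 102.4 CPM in the double mutant. egl-21, a carboxypeptidase E, had log2 ratios of −1.40, −1.35 and −0.45, and pghm-1, of the amidation step, −1.52, −1.30 and −0.41. In the double mutant the called genes were others, cpd-1 (−1.69) and pamn-1 (−1.13). Among 10 genes of dense core vesicles and release, ida-1 was lower in both single mutants (−1.43 and −1.17) and pkc-1 higher in nfki-1(cer1) (1.07), with medians of 0.26, 0.26 and −0.33.

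Of 68 receptor genes, 20 were lower and 7 higher in nfki-1(cer1) (23.1% and 27.7% of all genes), 19 lower and 4 higher in ikb-1(nr2027) (19.7% and 26.8%), while the double mutant had 5 and 4 (6.96% and 18%), so that the shares lower lay near those of all genes (medians −0.70, −0.50 and −0.31). tkr-2 had the lowest ratio in nfki-1(cer1) (−2.44), and npr-10 (2.12, 2.07 and 2.10) and tkr-3 (2.11, 1.75 and 1.71) were higher in all 3 mutants. frpr-4 (−1.18, −1.66 and −1.14) was lower in all 3. More neprilysins were called higher than lower, with 10, 11 and 11 higher of 21 and 2, 0 and 0 lower, led by nep-4 (3.32, 3.12 and 2.86). The 10 called higher in nfki-1(cer1) were low in WT, with none above 1.502 CPM in a WT file. Of the neprilysins above 10 CPM in WT, nep-1, nep-2, nep-11, nep-18, nep-21 and nep-22 were below WT in nfki-1(cer1). Only nep-17 was above it, at 1367 and 1317 CPM against 931.6 and 916.2 CPM in WT. Of other neuropeptide genes, pdf-1 and snet-1 passed the filter, with pdf-1 at −1.44, −0.83 and −0.50 and snet-1 at −1.99, −1.06 and −1.64.

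Markers of other tissues moved with the L4 strains as well. Among all genes, nfki-1(cer1) had 23.1% called lower and 27.7% higher, while ikb-1(nr2027) had 19.7% lower and 26.8% higher. The double mutant had 6.96% lower and 18% higher. The 12 germline markers were all higher in each mutant, with medians of 3.28, 3.12 and 1.79, and their summed level was 380.1 to 387.2 CPM in WT, 3613 to 3734 CPM in nfki-1(cer1), 3451 to 3588 CPM in ikb-1(nr2027) and 1382 to 1444 CPM in the double mutant. Of 10 epidermis and molting markers 9 were lower in each mutant, with medians of −2.62, −2.52 and −2.58 and summed levels of 3933 to 3937 CPM in WT and 519.6 to 628.2 CPM in the mutants. Of 7 sperm markers 6, 6 and 7 were higher (medians 1.80, 1.92 and 1.91). Of 11 pan-neuronal markers 3, 1 and 0 were lower (27.3%, 9.09% and 0%, against 23.1%, 19.7% and 6.96% of all genes). Their shares lower thus lay near or below those of all genes. Their medians were −0.58, −0.70 and −0.49 against −1.21, −0.98 and −0.16 over the members. The summed level of these markers was 309.1 to 334.0 CPM in WT and 216.9 to 259.3 CPM in the mutants. Of 6 transmitter genes past the filter 2, 1 and 0 were lower and 0, 0 and 1 higher, and the medians of muscle markers were −0.96, −0.52 and −0.68 and those of intestine markers −0.71, −0.91 and −0.41. These medians hide splits within lists, seen when the double mutant is set against nfki-1(cer1). Of the pan-neuronal markers, unc-10 (−1.25), unc-13 (−0.68) and unc-18 (−0.56) were lower, and the others lay above 0, up to 0.97 in ric-4. Of the muscle markers, unc-22 (−2.29) and unc-89 (−1.14) were lower, and the others lay above 0, up to 0.72 in unc-15. The cause of these splits was not tested, nor was a part of transcript length in them. No defining marker list was at 0. The part of germline, epidermal and neuronal content in the neuropeptide ratios was not tested.

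**Figure D4:**
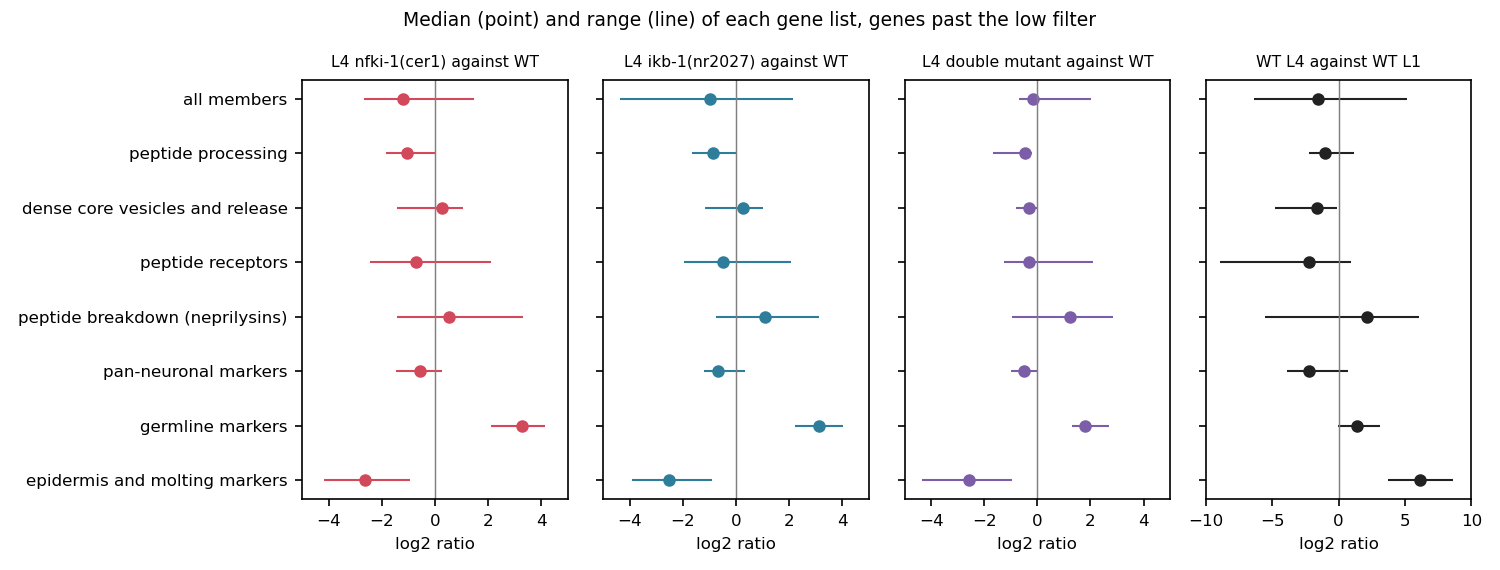
Median (point) and range (line) of the log2 ratio over the genes of 8 lists past the low filter, for the L4 mutants against WT and for WT L4 against WT L1. Members and processing genes lie left of 0 in both single mutants and closer to 0 in the double mutant, where germline markers stay right of 0 and epidermis and molting markers left of 0. In the panel of WT L4 against WT L1 the axis spans a wider range.

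At L1, no neuropeptide gene was called in either mutant after adjustment. Of 67 members that passed the filter, 0 were called in either mutant by edgeR at an adjusted p below 0.01 (0% of 18149 genes in both), and DESeq2 also called 0 members. With 2 libraries per strain the edgeR test could miss large changes, since ikb-1 itself, at −4.53 on the log2 scale in ikb-1(cer9), had an edgeR adjusted p of 0.0863. At an unadjusted edgeR p below 0.05, nfki-1(cer2) had 0 members higher and 3 lower (0.325% and 0.557% of all genes), while ikb-1(cer9) had 2 and 4 (0.749% and 0.479%). The summed level was 2602 and 2670 CPM in nfki-1(cer2) and 2276 and 2404 CPM in ikb-1(cer9), and the medians were 0.05 and −0.13. The log2 change was within 0.5 in size for 62 of 67 members in nfki-1(cer2) and for 60 in ikb-1(cer9). Without L1 WT replicate 2, or without either library of nfki-1(cer2), 1 member was lower there, and in ikb-1(cer9) 0 were higher without L1 WT replicate 1 and 0 lower without replicate 1 of the mutant. Both libraries of ikb-1(cer9) lay below both of WT for 23 members and above for 4 (9.94% and 6.96% of all genes), and both of nfki-1(cer2) below for 6 and above for 10 (10.3% and 11.4%). Between libraries of the same number, the median in ikb-1(cer9) was −0.25 for number 1 and −0.03 for number 2.

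The 3 members under an unadjusted p of 0.05 in nfki-1(cer2) were the gut and epidermis genes nlp-24, nlp-26 and nlp-33, and in ikb-1(cer9) 2 of the 6 such members, nlp-24 and nlp-26, were of this group. nlp-24 stood at 58.49 and 62.37 CPM in WT, 37.94 and 40.99 CPM in nfki-1(cer2) and 75.24 and 87.3 CPM in ikb-1(cer9). Its log2 changes were −0.61 (SE 0.17, unadjusted p = 0.0117) and 0.43 (unadjusted p = 0.0472) in edgeR. nlp-26 stood at 2.06 and 3.71 CPM in WT, 1.65 and 1.35 CPM in nfki-1(cer2) and 7.57 and 5.87 CPM in ikb-1(cer9), with log2 changes of −0.94 (SE 0.37, edgeR unadjusted p = 0.0441) and 1.22 (SE 0.37, edgeR unadjusted p = 0.0156). nlp-33 stood at 43.78 and 37.01 CPM in WT, 28.62 and 30.3 CPM in nfki-1(cer2) and 49.76 and 49.4 CPM in ikb-1(cer9). In nlp-24, nlp-25, nlp-26 and nlp-33, both nfki-1(cer2) libraries lay below and both ikb-1(cer9) libraries above the WT libraries, 4 genes picked after their values were seen. The share of all genes with this joint pattern was not computed. nlp-25 was near the floor, at 0.2649 and 0.2195 CPM in WT, 0.1429 and 0.03385 CPM in nfki-1(cer2) and 0.336 and 0.3119 CPM in ikb-1(cer9). The list has 6 genes, and nlp-32 did not share this pattern, at 0.8571 and 0.6586 CPM in WT and 0.656 and 4.419 CPM in ikb-1(cer9). Neither did nlp-40, at 114.4 and 143.8 CPM in WT, 118.6 and 169.1 CPM in nfki-1(cer2) and 114 and 106.9 CPM in ikb-1(cer9). All of these members had an edgeR adjusted p of 1. The summed epidermis and molting markers spanned 53.16 and 147.8 CPM in WT, 52.3 and 70.65 CPM in nfki-1(cer2) and 57.59 and 152.1 CPM in ikb-1(cer9), so they differed as much between replicates as between strains.

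In ikb-1(cer9), flp-17 stood at 27.84 and 33.74 CPM compared with 44.51 and 54.04 CPM in WT (log2 change −0.68, edgeR unadjusted p = 0.0176, adjusted p = 1), and at 45.68 and 56.84 CPM in nfki-1(cer2). The other members under an unadjusted p of 0.05 were nlp-4 (−1.82), nlp-41 (−0.51) and nlp-20 (−0.44). Of the remaining members with the largest changes, flp-10 had −0.61, flp-3 −0.48 and nlp-2 −0.42 in ikb-1(cer9), while nlp-32, at 1.74, rested on 1 library of 4.42 CPM beside one of 0.66 CPM. In nfki-1(cer2) the largest increases were flp-4 and flp-3 (0.31 each), flp-27 (0.28), flp-25 and nlp-12 (0.26 each) and nlp-36 (0.25), and the largest decreases after nlp-33 (−0.46) were nlp-2 (−0.23), nlp-20 (−0.20) and nlp-41 (−0.13). The pathway lists had 0 genes called by edgeR at L1, at the adjusted threshold and at an unadjusted p below 0.05, with medians of 0.05 and 0.02 for processing, −0.02 and 0.05 for release, −0.03 and −0.08 for receptors, −0.09 and 0.14 for neprilysins and −0.07 and 0.04 for pan-neuronal markers.

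**Figure D5:**
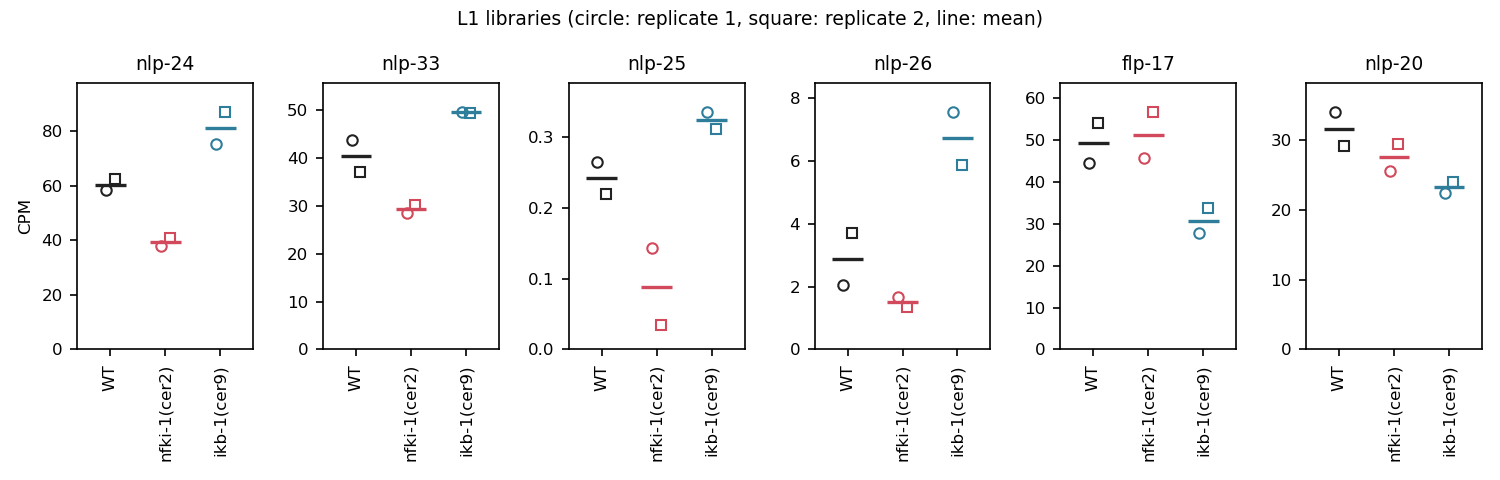
CPM of 6 members in the 6 L1 libraries, with a line at the mean of each strain. In nlp-24, nlp-33, nlp-25 and nlp-26 the nfki-1(cer2) points lie below and the ikb-1(cer9) points above those of WT, and in flp-17 and nlp-20 the ikb-1(cer9) points lie lowest.

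A further test asked for which members the mutant effect differed between the stages. Each L4 strain entered it as 1 sample, so that the spread came from the L1 libraries alone and the p-values assume that L4 samples vary likewise. The effect of nfki-1 loss was lower at L4 than at L1 for 20 of 66 members in edgeR at an adjusted p below 0.05 (2.87% of all genes) and higher for 0 (6.32% of all genes). At an unadjusted p below 0.05 the counts were 40 lower and 4 higher (15.5% and 15.4% of all genes), and DESeq2 called 31 and 1 at its adjusted p (9.54% and 12.3%). For ikb-1 loss, edgeR called 5 members lower (1.23% of all genes) and 0 higher (4.89%), with 28 and 7 at an unadjusted p below 0.05 (13% and 14.9%) and 19 and 4 in DESeq2 (6.69% and 11.2%). Of the 20, nlp-19 was under the filter at L4, with 12 and 14 reads in the WT files and 3 in each nfki-1(cer1) file. The median difference was −1.29 over the members and −0.09 over all genes for nfki-1, and −0.93 and −0.13 for ikb-1. nlp-17 had the largest difference among the called members for both genes, −2.88 (edgeR adjusted p = 0.0209) and −2.66 (edgeR adjusted p = 0.0279). Of the processing genes, egl-21, pgal-1, pghm-1 and sbt-1 were called lower for nfki-1 loss and sbt-1 for ikb-1 loss. Since the alleles differ between the stages, stage and allele cannot be told apart.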

How the data were processed

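RNA-seq of samples labelled as whole animals was deposited as counts per gene, which the authors made by trimming with Trim Galore, aligning to WBcel235 with Bowtie2 and counting uniquely aligned reads with HTSeq; labels also list CASAVA 1.4. Reads on no gene (13.41 to 19.99% of a file) were left out. Low read counts limit members under 1 CPM, such as nlp-19 with 12 and 14 reads in the L4 WT files. Members and gene lists were chosen with earlier results of these data known.

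Levels, ratios and tests used edgeR 4.0.16 with TMM in R 4.3.3, DESeq2 1.42.0 as an alternative, and Python 3.11.15 with pandas 2.3.3 and matplotlib 3.10.9. The minimum was a mean of 10 counts. L4 members were called at a log2 ratio of 1, L1 genes at an adjusted p of 0.01 (Benjamini-Hochberg), and stage differences at both. A change of a mutant effect between stages was called at 0.05. RPKM used exon length. Steps were tested on simulated data.

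Named were the 6 members of highest level at each stage, the 6 largest increases and decreases per comparison among members of at least 1 CPM in either group, the role lists, the 3 L1 members of smallest p, and at most 4 called genes per pathway list. Alternatives were other scalings, filters, thresholds and tools, a replicate block and leaving out each replicate. The single L4 files alone and the double mutant against the single mutants were added after seeing the data.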

Additional observations from a re-analysis of the deposited data

Results flagged for a closer look

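The members below had a mutant effect at L4 that differed from the effect at L1 in edgeR's test of the difference at an adjusted p below 0.05. In each the L4 effect was the lower, and values are log2 differences. Each L4 strain was 1 sample, so the spread behind these p-values came from the L1 libraries alone. At L4, nlp-19 was under the filter and rests on 3 reads in each nfki-1(cer1) file. For nfki-1 loss the FLP genes were flp-25 (−2.52), flp-7 (−2.30), flp-20 (−2.27), flp-16 (−2.22), flp-5 (−2.22), flp-4 (−1.97), flp-22 (−1.85), flp-26 (−1.75), flp-12 (−1.51) and flp-24 (−1.45), with edgeR adjusted p from 0.0197 to 0.0438. The NLP genes for nfki-1 loss were nlp-17 (−2.88), nlp-19 (−2.53), nlp-1 (−2.31), nlp-37 (−2.02), nlp-20 (−1.79), nlp-15 (−1.79), nlp-35 (−1.76), nlp-38 (−1.66), nlp-10 (−1.61) and nlp-33 (−1.44), with edgeR adjusted p from 0.0173 to 0.0445. For ikb-1 loss they were nlp-17 (−2.66), flp-16 (−1.78), flp-7 (−1.78), nlp-1 (−1.73) and nlp-33 (−1.48), with edgeR adjusted p from 0.0279 to 0.0497.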

How the results depend on the processing

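At L4, depth leaves members under 1 CPM with wide intervals, and without replicates the spread between populations is unknown. Among the members taken singly, in nfki-1(cer1) 756 values stayed on their side of the threshold, 99 lost a call and 13 gained one under the alternatives, in ikb-1(nr2027) 731, 115 and 22 did, the double mutant had 837, 16 and 15, and no direction of a call reversed. Where the cause of a move is not given by the alternative's construction, the cause was not tested.

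In nfki-1(cer1), the members higher (4) became 7 with library totals alone, 0 at a log2 ratio of 2, 1 in edgeR and 2 in DESeq2 with the files as replicates, 0 with the spread of the L1 replicates, and 2 to 4 leaving out a replicate. The members lower (38) became 24, 6 and 5 with totals, a log2 ratio of 2 and the L1 spread. The median (−1.21) became −1.15 with RLE, −0.79 with totals, −1.17 in DESeq2, −1.31 with the L1 spread, −1.07 in the files numbered 2 alone, and −1.23 to −1.03 leaving out a replicate.

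In ikb-1(nr2027), the members higher (5) became 8 with totals, 1 at a log2 ratio of 2, 2 in edgeR on the files, 0 with the L1 spread, 8 in the files numbered 1 alone, and 5 to 8 leaving out a replicate. The members lower (31) became 18 with totals, 2 at a log2 ratio of 2, 18 in edgeR on the files and 0 with the L1 spread. The median (−0.98) became −0.94 with RLE, −0.64 with totals, −1.10 with the L1 spread, −0.90 and −0.85 in the files numbered 1 and 2 alone, and −1.06 to −0.62 leaving out a replicate.

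In the double mutant, the members higher (7) became 1 at a log2 ratio of 2, 4 in edgeR and 3 in DESeq2 on the files, and 0 with the L1 spread. The members lower (0) became 0 to 3 leaving out a replicate, with 1 without replicate 1 and 3 without replicate 2 of the mutant. The median (−0.16) became −0.14 with RLE, 0.033 with totals, −0.047 with no filter, −0.15 in edgeR and −0.14 in DESeq2 on the files, −0.068 with the L1 spread, −0.062 and −0.0041 in the files numbered 1 and 2 alone, and −0.26 to 0.14 leaving out a replicate.

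At L1, the members lower at an unadjusted p below 0.05 in nfki-1(cer2) (3) became 1 with totals and 1 to 2 leaving out a replicate, where the median (0.05) became −0.032 to 0.13. In ikb-1(cer9), the members higher (2) became 1 with totals, 1 with filterByExpr, 1 in a fit of the 2 strains alone and 0 to 2 leaving out a replicate, and those lower (4) became 2 with totals, 2 with no filter, 2 in the fit of the 2 strains and 0 to 3 leaving out a replicate. Between the stages in WT, the members higher (8) became 5 at a log2 change of 2 and 4 to 7 leaving out a replicate, and the median (−1.57) became −2.13 with totals, −1.79 with no filter and −1.84 to −1.46 leaving out a replicate.

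Replicate numbers are shared by the strains, and deviations of same-numbered L1 libraries correlated at 0.737, 0.477 and 0.495 across 13875 genes, and the differences between L4 files at 0.871 to 0.921 across 11449 genes, but with 2 numbers they are not taken to pair the samples. With a replicate block, the L4 median of the double mutant in edgeR on the files was −0.15, and edgeR at an adjusted p below 0.05 called the mutant effect lower at L4 than at L1 for 37 members and higher for 0 in nfki-1 (13.6% and 13.7% of all genes), and for 28 and 5 in ikb-1 (10.8% and 13%). DESeq2 without the block gave 31 lower and 1 higher, and 19 lower and 4 higher. At L1 the block gave 0 members at an adjusted p below 0.01 in both mutants, as without it.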
